A study of Mus musculus with 18 samples.

Results

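The replication-dependent histone genes of the mouse were described across 6 groups of IMCD3 cells, an immortalised epithelial line that originates from inner medullary collecting ducts of mouse kidney. They were the rows whose name follows the pattern of the clusters Hist1 to Hist4, with names ending in -ps left out and at least 1 TPM in at least 3 libraries required. TPM expresses a gene's share of the library's messages, corrected for gene length. The pattern matched 70 of the 49845 gene names. One name ending in -ps, Hist3h2bb-ps, was left out, and 5 genes (Hist1h1t, Hist1h2aa, Hist1h2ba, Hist1h4m and Hist2h2aa1) lay under the filter. The remaining 64 were among the 16718 genes tested. They comprised 5 linker histone H1 genes, 18 H2A, 17 H2B, 12 H3 and 12 H4 genes. The Hist1 cluster on chromosome 13 held 52 of them, Hist2 on chromosome 3 held 9, Hist3 on chromosome 11 held 2 and Hist4 on chromosome 6 held 1.

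The groups crossed 3 genotypes with 2 culture conditions, with 3 total RNA libraries in each and 18 in all. Wild-type cells, an Ift140 knockout line and a Dync2h1 knockout line were kept either static or for 3 h under fluid flow with a shear stress of 0.7 dyne/cm2, on microslides. Ift140 and Dync2h1 encode parts of the motor-driven transport that returns material from the tip of the primary cilium, and the series compares how cells with and without these genes respond to flow. All groups share the strain background Tg(SV40E)bri/7, a transgene with the early region of SV40, and passages 10 to 15. The labels do not say how many clones stand for each knockout or whether replicates were separate cultures, so p-values measure only the spread between these libraries, which may be technical. It is also not stated whether the libraries were made from poly(A)-selected RNA.

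Replication-dependent histone genes supply the histones that package newly made DNA, and their messages build up in S phase and are degraded when replication stops. Unlike other messages of animal cells they usually end in a conserved stem-loop in place of a poly(A) tail. The stem-loop is bound by SLBP, which takes part in processing, export and translation of the message, and transcription is driven by NPAT, a target of cyclin E with CDK2, together with factors particular to each histone class, such as HINFP at H4 genes. In bulk RNA, fewer cells with a message and less message per cell cannot be told apart.

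The 3' stem-loop is shown because it defines this class of message and because its stem differs between H4 and the other classes. In the GENCODE vM21 transcripts on GRCm38, the consensus of the histone stem-loop (a stem of 6 bases on each side of a loop of 4, read on the transcript strand only) was found in 41 of the 64 genes, and in 51 of all 55341 annotated genes (0.092%). The annotated transcripts of the other 23 do not hold these letters. All 31 stem-loops outside H4 opened with GGCTC (3 in H1, 10 in H2A, 10 in H2B and 8 in H3). Of the 10 in H4 genes, 8 opened with GGCCC and 2 with GGTCC. Capitals mark the stem-loop, with 5 flanking bases on each side, for 6 genes described below:
Hist3h2ba: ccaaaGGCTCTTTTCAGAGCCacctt
Hist1h2ac: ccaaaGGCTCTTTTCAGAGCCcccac
Hist1h3d: ccaaaGGCTCTTTTCAGAGCCacccc
Hist1h4j: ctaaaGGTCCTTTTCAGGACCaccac
Hist1h4i: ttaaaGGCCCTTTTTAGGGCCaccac
Hist2h4: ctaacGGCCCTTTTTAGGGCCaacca

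The upstream sequences are shown because the H4 genes, whose levels under flow are described separately below, carried other promoter letters than the rest. RefSeq promoters on GRCm38.p6 were matched for 56 of the 64 genes, and 4 motifs were searched on both strands in the 250 bases upstream of the start. CCAAT, the box bound by NF-Y, was present in 43 of 45 promoters outside H4 (95.6%) and in 3 of 11 H4 promoters (27.3%), against 34.5% of the 27025 RefSeq promoters. GGTCCG, letters of the H4 element that HINFP binds, was present in 8 of 11 H4 promoters (72.7%) and in 2 of the other 45 (4.4%), against 6.8% of all promoters. GGTCCG was added after the sequences had been seen. Hist1h2br, an H2B gene by its name, was matched through a synonym to a RefSeq entry with an H4 symbol. It was counted among the 45 outside H4, although that promoter may belong to an H4 gene. The octamer ATTTGCAT was found in 6 H2A and 5 H2B promoters, 19.6% of the 56 against 1.6% of all promoters, and TATAAA in 46.4% against 13.0%. None of the 4 motifs contains another, and 16 of the 56 windows overlap the window of another member, since histone genes often lie head to head. A match is a description of these letters and not evidence of binding. The 130 bases before the start follow for 5 genes, in the direction of transcription, with the searched motifs of either strand in capitals. The windows are chr11:58948781-58948910 (plus strand) for Hist3h2ba, chr13:23683960-23684089 (minus) for Hist1h2ac, chr13:23575633-23575762 (plus) for Hist1h3d, chr13:22041363-22041492 (minus) for Hist1h4i and chr13:21734904-21735033 (plus) for Hist1h4j:
Hist3h2ba: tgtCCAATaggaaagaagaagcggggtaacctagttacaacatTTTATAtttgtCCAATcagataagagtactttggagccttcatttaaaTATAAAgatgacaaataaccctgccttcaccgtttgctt
Hist1h2ac: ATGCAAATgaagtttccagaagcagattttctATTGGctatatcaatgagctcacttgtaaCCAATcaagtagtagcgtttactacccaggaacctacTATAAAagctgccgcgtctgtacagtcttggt
Hist1h3d: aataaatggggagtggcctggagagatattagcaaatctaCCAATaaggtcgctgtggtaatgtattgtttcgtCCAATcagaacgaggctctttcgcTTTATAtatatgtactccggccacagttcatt
Hist1h4i: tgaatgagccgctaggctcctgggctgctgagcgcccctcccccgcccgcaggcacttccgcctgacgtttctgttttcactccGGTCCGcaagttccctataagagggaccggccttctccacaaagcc
Hist1h4j: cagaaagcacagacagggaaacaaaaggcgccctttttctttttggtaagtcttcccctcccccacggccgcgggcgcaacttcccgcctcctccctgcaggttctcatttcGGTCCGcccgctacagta

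Some facts of the whole series bear on every value below. Ift140 was at 6.26, 6.44 and 7.45 scaled TPM in the static libraries of its knockout line and at 7.65, 8.53 and 15.4 under flow, against 15.1 to 19.5 in the wild type. The value of 15.4 goes against the label, so that sample, flow replicate 3 by its title, is called the library labelled Ift140 flow 3. Results of the Ift140 line are given with and without it. This library differed in other RNAs too. The 14 non-coding RNAs listed as without a poly(A) tail summed to 69710 TPM there, against 95150 and 98060 in flow replicates 1 and 2. Static replicate 3 was also low in the Ift140 line (70680, against 105800 in replicate 1) and in the Dync2h1 line (75410, against 114200). What sets these libraries apart was not tested. Dync2h1 was at 7.07 to 15.4 in its knockout line and at 28.1 to 45.4 in the wild type. The cells carried the epithelial messages Krt8, Krt18 and Epcam in every library, while the 10 collecting duct markers together reached only 1.21 to 7.29 TPM, so the labelled segment was not visible in these markers. Summed markers of fibroblasts reached at most 4.48 TPM, those of leukocytes 22.4 and those of endothelium 1.14, and in the fibroblast and leukocyte lists 1 of 7 markers was listed at 0 in every library. TPM keeps no sequencing depth, so the counting precision of each value is unknown.

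Many histone genes share sequence, and this limits what single rows can show. In 32 of the 64 genes more than 50% of the 50-base stretches of the transcript also occur in another gene, the median share was 51.0%, and 3 genes shared none. In some near-identical pairs the estimates went almost wholly to 1 copy, and in others both copies held large values. Hist1h2bq was listed at 0.0177 to 3.62 TPM beside its copy Hist1h2br at 1116 to 2138. Likewise Hist2h2aa1 was at 0 to 1.96 beside Hist2h2aa2 at 1976 to 2954, and Hist1h4m at 0 to 1.07 beside Hist1h4n at 1167 to 2073. The rows Hist1h2br, Hist2h2aa2 and Hist1h4n may hold the messages of both copies, which bears on their rank among the highest members. Hist1h2ao and Hist1h2ap, with 93.5% of Hist1h2ao shared, varied within groups by 19.7% and 40% (coefficient of variation), whereas their sum varied by 8.14%. The median within-group variation of the 64 genes was 8.21%, and only Hist1h2ap, Hist1h2bq, Hist1h2aj and Hist2h3c1 exceeded 30%. At the edge of the filter, Hist3h2a entered with 3 libraries at 1 TPM or more and Hist2h2aa1 fell outside with 2. GENCODE vM21 annotates 2 members, Hist1h2aj and Hist1h2al, as pseudogenes.

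Histone cluster messages were abundant. Averaged over the 18 libraries, 52 of the 64 genes stood at 100 TPM or more and 7 at 1000 or more, and the 5 highest held 31% of the sum. Hist2h2aa2, an H2A gene, was highest at 2673, 2394 and 2493 scaled TPM in static wild-type libraries, above Hist2h2bb (H2B) at 2173, 2035 and 2116 without overlap. Hist1h4n (H4) at 1858, 1632 and 1728 and Hist1h2br (H2B) at 1703, 1649 and 1678 followed and overlapped each other, and Hist1h4k (H4) lay below both at 1525, 1232 and 1287. The leading H3 genes were Hist1h3h at 1216, 1149 and 1175 and Hist2h3b at 812, 810 and 802. Hist2h2ac, second among H2A genes by the mean over all libraries, was at 756, 678 and 692. Among the linker histones, which bind the DNA between nucleosomes, Hist1h1d led at 640, 584 and 596. Hist1h1a, next by the mean over all 18 libraries, was at 312, 292 and 306 there and overlapped Hist1h1e at 314, 347 and 311 and Hist1h1b at 268, 320 and 316.

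Histone cluster messages fell under flow in wild-type cells. The 64 genes together made up 3.14%, 3.16% and 3.17% of all TPM in the static libraries and 2.13%, 2.54% and 2.49% under flow. Summed scaled TPM were 32710, 30540 and 31130 in static culture and 21090, 25150 and 24680 under flow. Every flow library lay below every static one, and the mean was 24.9% lower. All 5 classes followed, without overlap between the groups: the sum was 31.1% lower for H1, 26.3% for H2A, 23.6% for H2B, 28.8% for H3 and 20.6% for H4. An exact test of 3 against 3 libraries cannot give a p under 0.1, so calls on single genes rest on the model across all genes.

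In that model (limma on log2 of scaled TPM + 1, Benjamini-Hochberg adjusted over 16718 genes, passed under 0.05), 45 of the 64 genes fell in the wild type and none rose. Over all genes tested 10.3% fell and 10.2% rose, 20.5% in either direction. The fold changes of all 64 were below 0, with a median of -0.45 (log2) against -0.01 for all genes. By class, 4 of 5 H1, 11 of 18 H2A, 14 of 17 H2B, 9 of 12 H3 and 7 of 12 H4 genes fell. In 59 of the 64 every flow library was below every static library, as in 20.5% of all genes. Among the 5 whose groups overlapped were Hist1h4c at -0.16 and Hist1h4d at -0.11, neither past the threshold. Among the 19 that did not pass were also the most abundant member, Hist2h2aa2, at -0.22 (adjusted p = 0.0783). Wild-type flow replicate 1 was the lowest of all 18 libraries for 53 of the 64 genes. Without it 39 genes fell, and leaving out each other library in turn left 39 to 44.

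**Figure D1:**
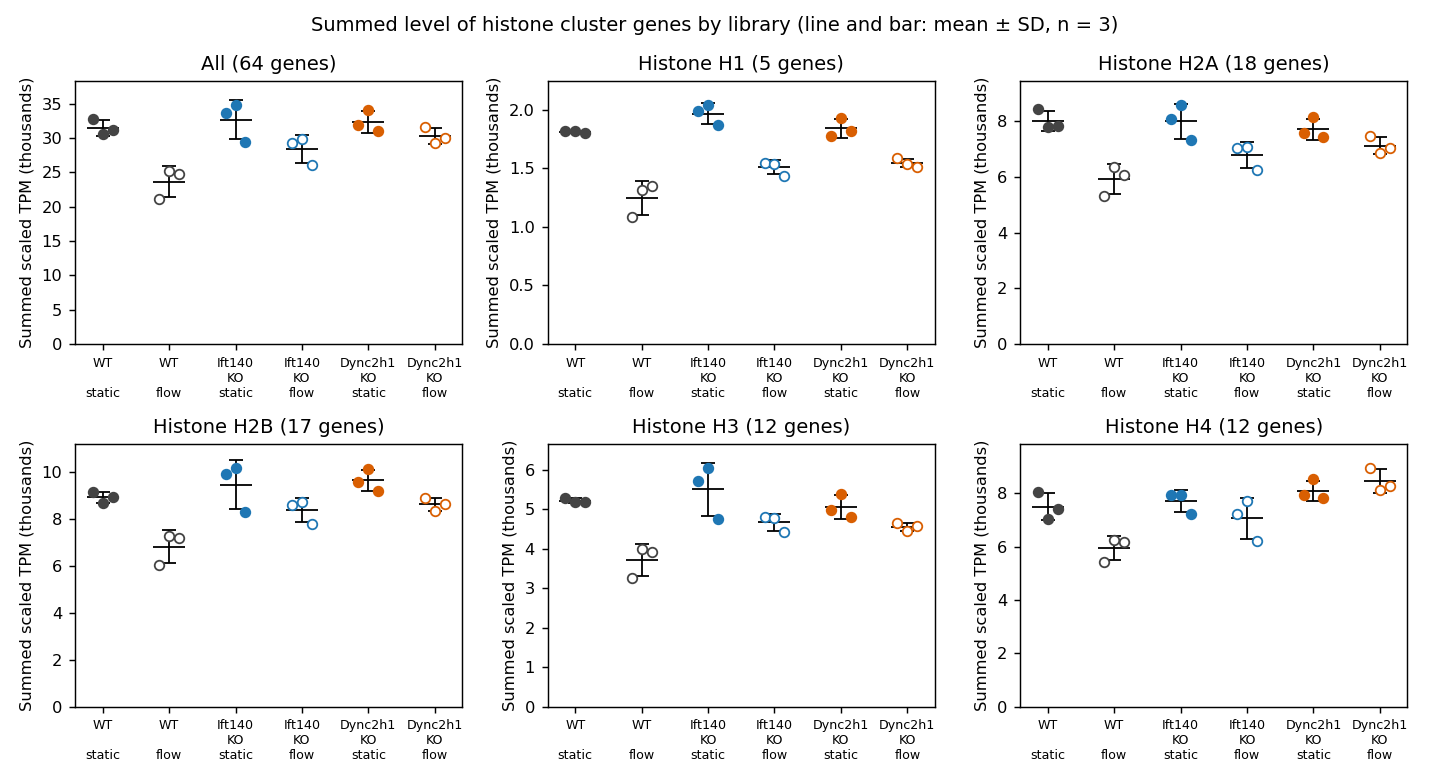
Summed scaled TPM, divided by 1000 on a linear axis from 0, of all 64 histone cluster genes and of each class, 1 point per library, filled for static and open for flow; lines and bars are mean ± SD, n = 3. Wild-type flow libraries lie below all static ones in every panel, whereas in the Dync2h1 line the H4 sums of static culture and flow overlap.

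Hist3h2ba, an H2B gene of the small Hist3 cluster, showed the largest fall in the wild type. Its level was 93.1, 85.9 and 91.4 in static wild-type libraries and 28.8, 37.5 and 35.6 under flow. In the Ift140 line it was 117, 116 and 87.8 static and 49.3, 50.5 and 44.2 under flow, and in the Dync2h1 line 71.9, 75.8 and 70.3 static and 24.3, 25.5 and 26.6 under flow. Flow and static libraries were far apart in all 3 genotypes. Log2 fold changes were -1.39 in the wild type (adjusted p = 2.98e-07), -1.13 in the Ift140 line (4.2e-06) and -1.48 in the Dync2h1 line (1.83e-07), each with a standard error of 0.11 (limma). Without the library labelled Ift140 flow 3 the Ift140 value was -1.07. Its neighbour Hist3h2bb-ps, which shares 30% of its stretches with Hist3h2ba and is no member, had -1.29, -1.11 and -1.63.

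After Hist3h2ba, the next falls in the wild type were those of 2 H3 genes and an H2A gene. Hist1h3g went from 284, 263 and 264 to 131, 152 and 136 TPM (-0.95, SE 0.10, limma adjusted p = 4.89e-06). Hist1h3d went from 120, 123 and 112 to 61.8, 66.8 and 64.0 (-0.87, SE 0.08, adjusted p = 3.13e-06). Hist1h2ac went from 400, 365 and 353 to 180, 232 and 204 (-0.86, SE 0.11, adjusted p = 5.33e-05). Static and flow libraries did not overlap for any of these genes. Hist1h1d, the leading linker histone gene, went from 640, 584 and 596 to 335, 400 and 398 TPM, also without overlap, a log2 fold change of -0.69.

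**Figure D2:**
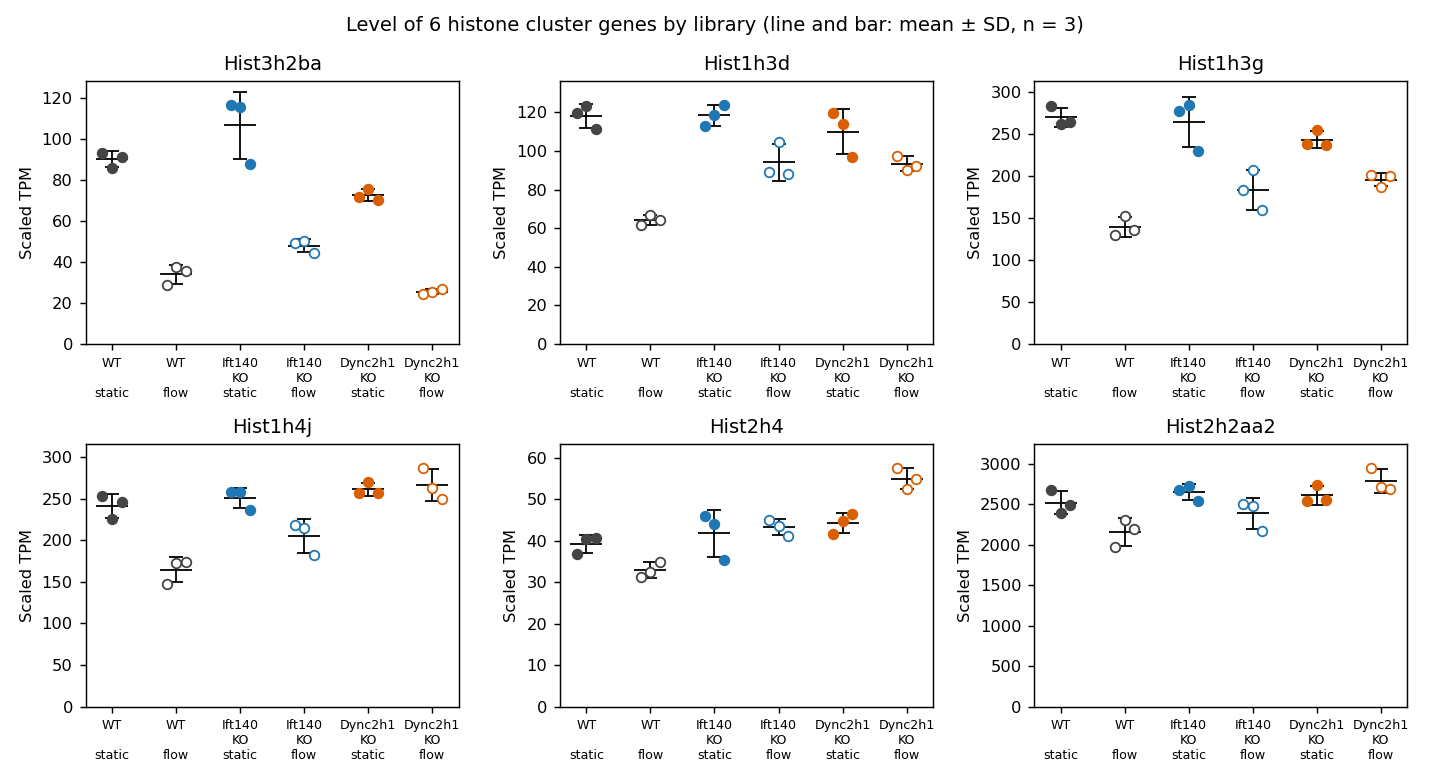
Scaled TPM (linear axes from 0) of 6 histone cluster genes in each library, filled for static and open for flow; lines and bars are mean ± SD, n = 3. Hist3h2ba is low under flow in all 3 genotypes, Hist1h3d and Hist1h4j are lowest in wild-type flow libraries, and Hist2h4 is highest in the flow libraries of the Dync2h1 line.

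In cells of the Ift140 line 21 histone genes passed. Summed levels were 33660, 34810 and 29430 in static culture and 29220, 29840 and 26120 under flow, the last being the library labelled Ift140 flow 3. These groups overlapped, since static replicate 3 lay below flow replicate 2, and the mean under flow was 13% lower (9.51% without the labelled library). Of the 64 genes 21 fell and none rose, against 8.27% that fell and 9.21% that rose over all genes (17.5% in either direction), and the median log2 fold change was -0.23. In 21 genes all flow libraries were below all static libraries, as in 13.4% of all genes. By class, 4 of 5 H1, 6 of 18 H2A, 4 of 17 H2B, 4 of 12 H3 and 3 of 12 H4 genes fell.

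The count in the Ift140 line moved with single libraries. Without the library labelled Ift140 flow 3, 11 genes fell and the median was -0.18. Leaving out static replicate 1 gave 10 and static replicate 2 gave 9, and a fit of the Ift140 groups alone gave 4. Those 11 that fell without the labelled library were Hist1h1c, Hist1h1d, Hist1h2ae, Hist1h2af, Hist1h2an, Hist1h3d, Hist1h3g, Hist1h3h, Hist1h4i, Hist2h2be and Hist3h2ba. After Hist3h2ba, the largest falls with all libraries, among members whose mean over the 18 libraries reached 5 TPM, were those of Hist1h2af (-0.58, SE 0.09, limma adjusted p = 0.000344), Hist1h1d (-0.57, SE 0.08, adjusted p = 0.000114) and Hist1h3g (-0.52, SE 0.10, adjusted p = 0.00143). Hist2h2be, an H2B gene under that level, had -0.68 (adjusted p = 0.000455). Hist1h1d was at 626, 637 and 645 TPM static and at 423, 459 and 401 under flow, without overlap.

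In the Dync2h1 line 19 histone genes passed. Summed levels were 31820, 34110 and 31060 static and 31550, 29320 and 30040 under flow, which overlapped, with a mean 6.27% lower. H1 sums were 16.1% lower, H2B 10.4% and H3 9.8%, each without overlap. H2A was 7.64% lower with overlap, and H4 stood at 7930, 8527 and 7813 static and 8961, 8120 and 8256 under flow, overlapping. Of the 64 genes 18 fell and 1 rose, against 8.15% that fell and 10.8% that rose over all genes (19% in either direction), with a median log2 fold change of -0.17. The 18 comprised 2 H1, 7 H2A, 6 H2B and 3 H3 genes, and no H4 gene. In 32 genes the flow libraries were all below the static ones, as in 18.3% of all genes. Leaving out static replicate 1 or 2 or flow replicate 1 or 2 lowered the 19 calls to 11, 9, 10 and 10.

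Hist2h4, an H4 gene of the Hist2 cluster, was the one that rose. It was at 41.5, 44.8 and 46.4 TPM in static Dync2h1 libraries and at 57.6, 52.4 and 54.8 under flow, without overlap (0.31, SE 0.09, limma adjusted p = 0.0273). The call was lost with TPM left unscaled and with quantile normalisation. In the wild type the same gene was at 36.7, 40.3 and 40.6 static and at 31.2, 32.3 and 35.0 under flow, all lower but not past the threshold. The median log2 fold change of the 12 H4 genes in the Dync2h1 line was 0.08, and it turned to -0.04 with unscaled TPM and -0.11 with quantile normalisation, with 2 H4 genes lower and none higher in each. The direction of the H4 class in this line therefore depends on the scaling. With these 2 scalings 33 and 35 of the 64 genes fell and none rose.

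By the same limit on the mean, the largest falls after Hist3h2ba in the Dync2h1 line were those of Hist1h2af (H2A, -0.61, limma adjusted p = 0.00018), Hist1h2ae (H2A, -0.46, adjusted p = 0.00616) and Hist1h2bl (H2B, -0.44, adjusted p = 0.0191). Under that limit, Hist2h2be (H2B) had -0.99 (adjusted p = 1.22e-05), Hist3h2a (H2A) -0.58 (adjusted p = 0.00627) and Hist2h3c1 (H3), listed at 0 in some libraries, passed as well.

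**Figure D3:**
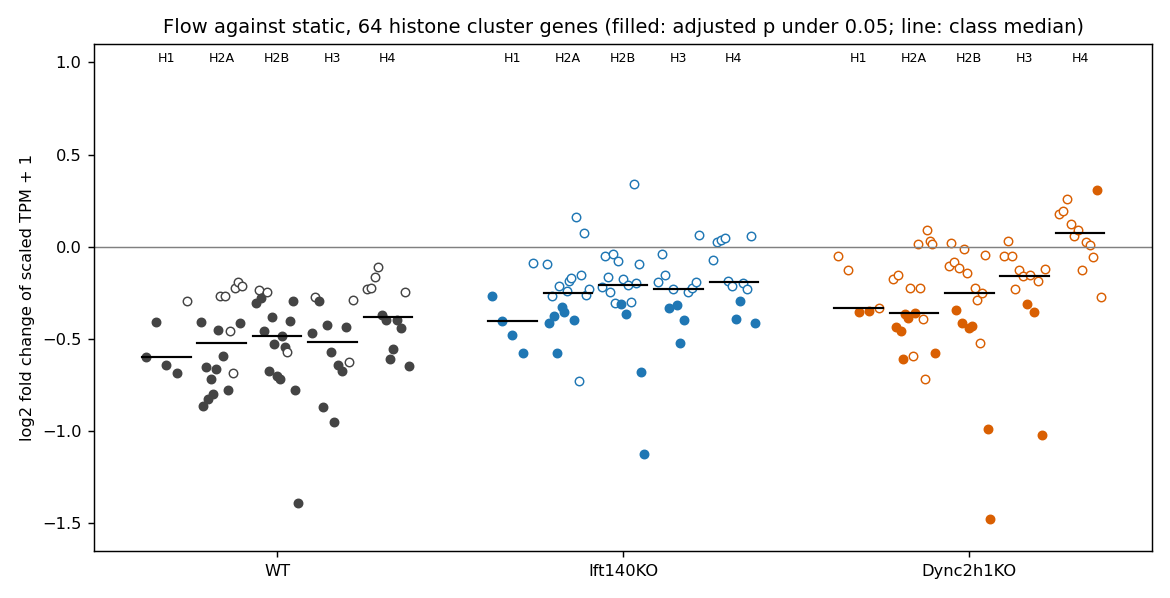
Log2 fold change, flow against static, of each of the 64 genes by genotype and histone class; filled points passed (limma adjusted p under 0.05) and black lines are class medians. All wild-type points lie below 0 and 45 are filled; 21 are filled in the Ift140 line and 19 in the Dync2h1 line, where the H4 points lie around 0.

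The lists of genes that fell were set beside each other, against 70.3% of the 64 members that fell in the wild type. All 21 of the Ift140 line were among the 45 (46.7% of these), and 16 of the 18 of the Dync2h1 line were (88.9% of the 18 and 35.6% of the 45). The overlaps were not tested. In all 3 genotypes 10 genes fell: Hist1h1c, Hist1h1d, Hist1h2ac, Hist1h2ae, Hist1h2af, Hist1h2ah, Hist1h2bm, Hist1h3g, Hist2h2be and Hist3h2ba. They hold H1, H2A, H2B and H3 genes and no H4 gene. Without the labelled library 7 fell in all 3. In none of the genotypes did 17 fall, among them Hist2h2aa2, Hist1h4a, Hist1h4b, Hist1h4c, Hist1h4d and Hist2h4. The lowest of the 6 group means was that of wild-type flow for 52 of the 64 genes. The highest was static culture of the Ift140 line for 24 genes, of the Dync2h1 line for 17 and of the wild type for 12. For 10 genes it was flow in the Dync2h1 line, and for 1 flow in the Ift140 line.

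Among static cultures few histone genes passed between genotypes. Ift140 knockout libraries had 5 lower and no higher genes of 64, against 9.08% lower and 8.97% higher (18.1% in either direction) over all genes, with a median of 0.06. Dync2h1 knockout libraries had 4 lower and none higher, against 14.1% lower and 13.5% higher (27.6% in either direction), with a median of 0.03. Both contrasts use the same wild-type libraries. The split of these few calls moved with the scaling: unscaled TPM gave 1 higher and 5 lower in either line, and in the Dync2h1 line quantile normalisation gave 1 and 7 and protein-coding scaling 3 and 2. The Ift140 count was 3 without static wild-type replicate 1, and the Dync2h1 count was 2 without any 1 of the static wild-type libraries or Dync2h1 static replicate 1 or 3.

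Hist1h3a, an H3 gene, was lower in both static knockout lines. It was at 336, 301 and 309 TPM in wild-type libraries, 248, 258 and 212 in the Ift140 line (-0.40, SE 0.09, limma adjusted p = 0.00547) and 213, 225 and 201 in the Dync2h1 line (-0.56, SE 0.09, adjusted p = 0.000216). Neither line overlapped the wild type. Hist1h2af, an H2A gene, was at 296, 293 and 289 in the wild type, 226, 248 and 213 in the Ift140 line (-0.36, adjusted p = 0.0116) and 209, 229 and 213 in the Dync2h1 line (-0.43, adjusted p = 0.00192), also without overlap. Hist2h2ab (-0.44) and Hist1h2ag (-0.37) were lower in the Ift140 line as well, and in the Dync2h1 line Hist3h2ba (-0.31) and Hist1h4a (-0.29).

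Under flow, in contrast, many histone genes were higher in the knockout lines than in the wild type. In the Ift140 line 28 of 64 were higher and none lower, against 7.73% higher and 7.52% lower (15.3% in either direction) over all genes, with a median of 0.29. In 38 genes all Ift140 flow libraries lay above all wild-type ones and in 2 below, as in 14.4% and 13.8% of all genes. Without the library labelled Ift140 flow 3 the count was 37 and the median 0.35. Without wild-type flow replicate 1, the lowest library, 11 were higher and 1 lower. Without Ift140 flow replicate 1 the count was 18, and a fit of the 2 groups alone gave 2. The largest rises were those of Hist1h2ao (0.81, adjusted p = 0.0169, one of the near-identical pair, 0.74 and adjusted p = 0.054 without the labelled library), Hist1h3i (0.61, adjusted p = 0.000692), Hist1h3d (0.54, adjusted p = 0.00047) and Hist1h2bh (0.51, adjusted p = 0.00762).

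In the Dync2h1 line under flow 37 genes were higher than in the wild type and 2 lower, against 16.1% higher and 14% lower (30.1% in either direction) over all genes. The median was 0.34, and in 48 genes all Dync2h1 libraries lay above all wild-type ones and in 2 below, as in 25.1% and 21.6% of all genes. By class, 10 of 12 H4 genes were higher, beside 4 of 5 H1, 6 of 18 H2A, 9 of 17 H2B and 8 of 12 H3 genes. The 4 largest rises were all of H4 genes. Hist1h4i was at 110, 126 and 116 TPM in wild-type flow libraries and 219, 184 and 191 in Dync2h1 flow libraries (0.74, SE 0.10, limma adjusted p = 3.16e-05). Hist1h4j was at 147, 172 and 174 and at 287, 262 and 249 (0.69, SE 0.09, adjusted p = 2.13e-05). Neither gene's groups overlapped. Hist2h4 (0.73) and Hist1h4f (0.62) were higher as well.

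The 2 lower genes were Hist3h2ba (-0.39, limma adjusted p = 0.0126) and Hist1h2af (-0.32, adjusted p = 0.0126). With quantile normalisation 14 genes were higher and 5 lower, 6 of the 14 being H4 genes. With unscaled TPM 23 were higher and 4 lower, and the median of all genes in this comparison moved from 0.01 to -0.10. Without wild-type flow replicate 1, 26 were higher and 3 lower. Both knockout contrasts under flow share the wild-type flow libraries, and the low replicate 1 stands in each.

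**Figure D4:**
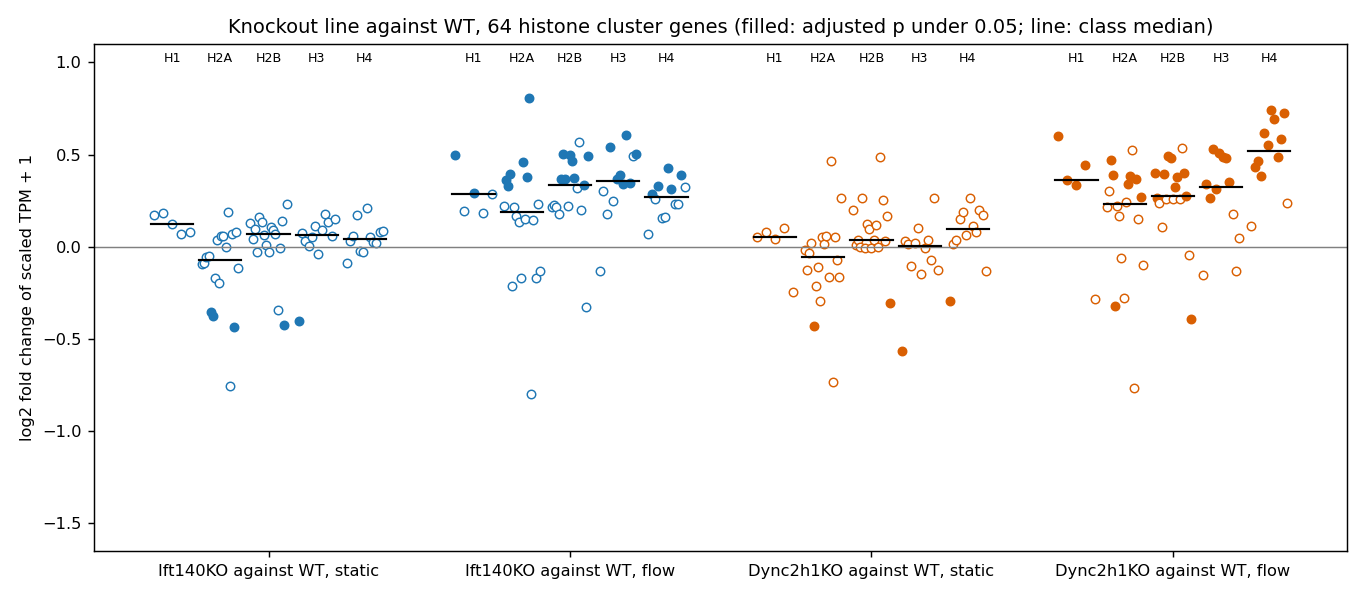
Log2 fold change of each of the 64 genes, knockout line against wild type, in static culture and under flow, by histone class; filled points passed (limma adjusted p under 0.05) and black lines are class medians. Static points lie around 0 with 5 and 4 filled, and under flow 28 points are filled above 0 in the Ift140 line and 37 in the Dync2h1 line.

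Whether the flow response itself differed was tested as the response of each knockout line minus that of the wild type. Differences above 0, a smaller fall or a rise in the knockout, were seen in 62 of 64 genes for the Ift140 line (median 0.22) and in 57 of 64 for the Dync2h1 line (median 0.29). Both share the wild-type response, so the counts are not independent. The share of all genes with a difference above 0 is not given here. In the Ift140 line no gene passed (limma), against 0.227% of all genes, 0.0778% above 0 and 0.15% below. At an unadjusted p under 0.05, 20 genes were above 0, none below, against 7.94% of all genes in either direction, and the smallest adjusted p was 0.117, for Hist1h3d. Without the library labelled Ift140 flow 3 none passed either, and the smallest adjusted p was 0.0648. In that fit 33 were above 0 at an unadjusted p under 0.05, against 899 of all 16718 genes. The median was 0.32, against 0.01 for all genes.

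In the Dync2h1 line 2 genes passed, both above 0, against 0.485% of all genes, 0.179% above 0 and 0.305% below. At an unadjusted p under 0.05, 31 genes were above 0 and none below, against 9.78% of all genes. Hist1h3d fell in the wild type but had only -0.23 (not passed) in the Dync2h1 line, from 120, 114 and 96.8 to 97.6, 90.2 and 92.4 TPM, groups that overlapped. The difference of responses was 0.64 (SE 0.12, limma adjusted p = 0.0251). Hist1h4j, at 254, 226 and 245 in static and 147, 172 and 174 in flow wild-type libraries (-0.55), was at 256, 270 and 257 static and 287, 262 and 249 under flow in the Dync2h1 line (0.03). The difference was 0.58 (SE 0.12, limma adjusted p = 0.0496). Leaving out any 1 of the 12 libraries of this contrast left 0 or 1 gene past the threshold.

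Genes around the histone message were followed from lists of their known roles. Over all genes tested, 10.3% fell under flow in the wild type, 8.27% in the Ift140 line and 8.15% in the Dync2h1 line. In the same order 10.2%, 9.21% and 10.8% rose. The flow counts of each list below are to be read beside these shares. Among 9 genes of histone gene transcription, Ccne1, the cyclin E that activates CDK2, rose under flow in all 3 genotypes. It was at 22.1, 27.7 and 21.6 TPM static and 41.3, 34.6 and 40.1 under flow in the wild type (0.68, limma adjusted p = 0.000538), without overlap, with 0.78 in the Ift140 line and 0.48 in the Dync2h1 line. Ccna2, the cyclin A of S phase and G2, fell in all 3 (-0.51, -0.41 and -0.39). Hinfp rose in the knockout lines (0.46 and 0.39). Cdk2 rose in the Ift140 line (0.29, limma adjusted p = 0.0316), and E2f1 fell in the Dync2h1 line (-0.38, adjusted p = 0.0305). Without the labelled library Ccne1 (0.80), Ccna2 (-0.35), Hinfp (0.41) and Cdk2 (0.38) passed in the Ift140 line as well. In that fit 4 of the 9 rose and 1 fell. Npat passed in none of the 3 comparisons of flow against static. Under flow, Npat (-0.40, limma adjusted p = 0.0185) and E2f1 (-0.36, adjusted p = 0.0254) were lower in the Dync2h1 line than in the wild type. The other genes of this list did not pass in that comparison.

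Of 13 genes of histone message processing and translation, Mif4gd, the SLBP-interacting factor of histone message translation, fell in all 3 genotypes (-0.40, -0.46 and -0.37). Others of this list rose. Zfp473 rose in the Dync2h1 line (0.96, limma adjusted p = 0.0017), from a low mean of 2.03 TPM to 4.88. Ncbp1 rose in the Ift140 line (0.37, limma adjusted p = 0.0205), and also without the labelled library (0.47, adjusted p = 0.00471). Slbp itself passed in none of the comparisons of flow against static with all libraries. Its level in the Ift140 line was 157, 158 and 157 TPM static and 190, 197 and 143 under flow, the last in the library labelled Ift140 flow 3, and without that library it rose (0.30, limma adjusted p = 0.00996). In static culture it was at 209, 182 and 182 TPM in the wild type and 134, 125 and 129 in the Dync2h1 line (-0.55, limma adjusted p = 0.00056). Under flow Slbp was also lower in the Dync2h1 line than in the wild type (-0.40, limma adjusted p = 0.00608). In that comparison Zfp473, Sympk and Cpsf2 of this list were higher (0.68, 0.42 and 0.26). Of 8 genes of message decay none passed in the wild type, 1 rose in the Ift140 line and 4 in the Dync2h1 line. Those 4 were Upf1 (0.44), Lsm1 (0.64), Dcp2 (0.41) and Zcchc6 (0.28), and none fell. Without the labelled library none of the 8 passed in the Ift140 line. Of 20 histone chaperones, 1 fell in the wild type, 3 rose and 2 fell in the Ift140 line (2 and 4 without the labelled library) and 3 rose in the Dync2h1 line.

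Histone variants listed as replication-independent were tested as well. Of 11 tested, 2 fell in the wild type, 1 in the Ift140 line and 2 in the Dync2h1 line, and none rose. Over all genes 20.5%, 17.5% and 19% passed in either direction. H1f0, a linker histone found in resting cells, fell in each and was at 188, 190 and 185 TPM static against 57.9, 72.7 and 71.2 under flow in the wild type. Its log2 fold changes were -1.48, -1.73 (-1.69 without the labelled library) and -2.05, with static and flow libraries apart in every genotype.

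Genes of DNA replication and of mitosis were counted beside the histones. Of 36 replication and S phase genes, 5 fell and 1 rose in wild-type cells under flow, 1 fell and 3 rose in the Ift140 line and 4 fell and 4 rose in the Dync2h1 line. Their medians were -0.11, -0.01 and 0.03. Of 20 mitosis genes 14 fell in the wild type, 9 in the Ift140 line (10 without the labelled library) and 9 in the Dync2h1 line, and none rose. Nusap1, a spindle protein, was at 126, 115 and 123 TPM static and 53.6, 60.2 and 64.4 under flow in the wild type (-1.02), without overlap. Bub1b, of the spindle checkpoint, fell too (-0.93, -0.73 and -0.56). The part of cell cycle stage in the histone values was not tested. In static culture 14 of the 36 replication genes were lower in the Ift140 line and none higher. In the Dync2h1 line 16 were lower and 2 higher. Of the 64 histone genes 5 and 4 were lower. Over all genes 9.08% were lower and 8.97% higher in the Ift140 line, and 14.1% and 13.5% in the Dync2h1 line.

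**Figure D5:**
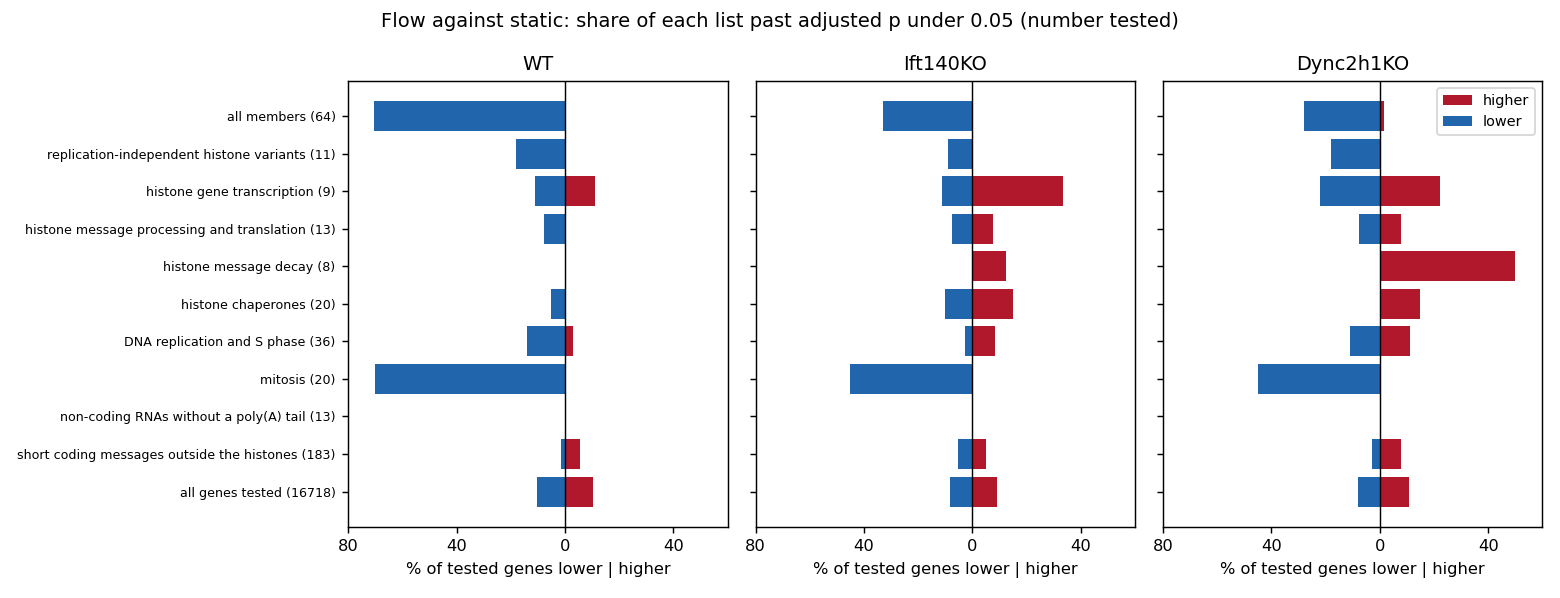
Share of tested genes in each list that fell (left, blue) or rose (right, red) under flow at a limma adjusted p under 0.05, by genotype, with the number tested in parentheses. The histone cluster genes and the mitosis genes have the longest bars to the left in the wild type.

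Messages that resemble histone messages in length or in their lack of a tail were read for comparison. Of 13 non-coding RNAs listed as without a poly(A) tail, none passed under flow in any genotype. Malat1 and Neat1 are among them, and whether their transcripts here lacked a tail was not tested. The standard errors of the 13 ran from 0.10 (Scarna13) to 0.53 (Rnu11). In the more variable of them a change as large as the histone median could be missed. The absence of calls therefore does not show that their levels were stable. Of 183 short coding messages outside the histones, with a longest transcript of at most 700 bases, 3 fell and 10 rose in the wild type, 10 fell and 9 rose in the Ift140 line (4 and 12 without the labelled library) and 5 fell and 14 rose in the Dync2h1 line. Their medians were -0.01, -0.04 and 0.07, against -0.45, -0.23 and -0.17 for the 64 histone genes. Markers of cell types moved with flow too. The 10 epithelial markers together reached 2661 to 2813 TPM in static and 4196 to 4511 in flow wild-type libraries, 3624 to 3943 and 4248 to 5119 in the Ift140 line, and 3554 to 3663 and 5000 to 5322 in the Dync2h1 line. Krt8 and Krt18 held most of these sums and rose in each genotype, while Pax2 fell in the wild type (-1.39, limma adjusted p = 0.0208) and Pax8 in the Dync2h1 line (-0.75, adjusted p = 0.0151). In all, 5 of the 10 rose and 1 fell in the wild type, 4 rose in the Ift140 line, and 4 rose and 1 fell in the Dync2h1 line. At much lower levels, the wild-type sum of leukocyte markers was 12.8 to 15.7 TPM static and 10.8 to 11.7 under flow, and that of collecting duct markers 3.45 to 4.69 and 1.21 to 2.05. Fibroblast markers in the Ift140 line summed to 0.835, 1.01 and 0.496 static and 3.37, 1.02 and 4.48 under flow, the last in the library labelled Ift140 flow 3. The part of these markers in the histone values was not tested.

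The members also differed in how far their annotated message runs beyond the stem-loop, a split chosen after values had been seen. Of 21 genes with at least 100 bases after it, 13 fell in the wild type (median -0.57), and of 20 with fewer bases 15 fell (median -0.43). The 23 without a stem-loop in a listed transcript had 17 lower (median -0.48). In the Ift140 line 10 of the 21 and 2 of the 20 fell (6 and 0 without the labelled library), and in the Dync2h1 line 8 of the 21 and 3 of the 20, and these differences were not tested. Of 6 cluster genes reported to make polyadenylated messages as well, 4 fell in the wild type and 3 in the Ift140 line (2 without the labelled library). In the Dync2h1 line 3 of the 6 fell, Hist3h2a at the edge of the filter among them. Hist2h2be, 1 of these, was at 6.65, 6.66 and 6.72 TPM static and 3.20, 3.76 and 3.49 under flow in the wild type, and at 7.92, 7.92 and 7.07 static and 3.27, 3.40 and 3.35 under flow in the Dync2h1 line, without overlap in either.

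When members sharing at least 50% of their stretches were summed before the fit, the 64 became 27 rows, of which 6 combined 43 genes. Under flow 77.8% of these rows passed in the wild type (21 lower, none higher), 37% in the Ift140 line (10 lower) and 37% in the Dync2h1 line (9 lower and 1 higher). The shares of single genes that passed were 70.3%, 32.8% and 29.7%. Against the wild type under flow, 40.7% of the rows passed in the Ift140 line and 66.7% in the Dync2h1 line. No row passed for either difference of responses. Hist1h3d then stood in a sum of 9 H3 genes, with a Dync2h1 difference of 0.39 (limma adjusted p = 0.337), and Hist1h4j in a sum of 6 H4 genes, with 0.44 (adjusted p = 0.286).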

How the data were processed

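Total RNA of 18 IMCD3 libraries was sequenced and processed by the authors. Per the submitters' processing notes, FastQC 0.11.5, Bowtie2 2.1.0 and RSEM 1.2.31 were used, and the builds mm10 and GRCm38.p5 are listed. Settings and annotation release are not given in the sources used here. The authors deposited TPM in 1 file per library. A leading row that repeats the file's total was left out.

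From these TPM, libraries were scaled with an unweighted trimmed mean of log ratios (30% of ratios and 5% of abundances trimmed). The 16718 genes that reached 1 TPM in 3 or more libraries were tested with limma 3.58.1 (R 4.3.3) on log2(scaled TPM + 1), with 6 group means, an empirical Bayes trend, 12 residual degrees of freedom and Benjamini-Hochberg adjustment over all genes. A gene passed at an adjusted p under 0.05. Fold changes are on this log2(TPM + 1) scale and understate those of low genes. The 9 comparisons set flow against static within every genotype, each knockout line against the wild type in either condition, and gave the 2 differences of responses. The script was tested on simulated data.

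Positions and transcripts come from GENCODE vM21 on GRCm38 and promoters from RefSeq GRCm38.p6. Named with values were the 5 highest members and the 2 highest of each class. Named with tests were the 4 largest rises and falls per comparison among passing members whose mean reached 5 TPM (3 for differences of responses), and up to 4 genes per list by smallest p, of which some are printed. Other names were chosen after values were seen. Members and lists were chosen with earlier results of these data known. Alternatives changed the scaling, pseudocount, filter, libraries in the fit and use of replicate numbers. Chosen after seeing the data were the sums of near-identical genes, the GGTCCG motif, the split by bases after the stem-loop, and the fits of lists and sums without the library labelled Ift140 flow 3.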

Additional observations from a re-analysis of the deposited data

Results flagged for a closer look

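In 2 of the 64 histone genes the flow response of the Dync2h1 line differed from that of the wild type by a test of the difference itself. For Hist1h3d the difference on the log2 scale was 0.64 (0.6386 before rounding, SE 0.12, limma adjusted p = 0.0251), and for Hist1h4j it was 0.58 (0.5783 before rounding, SE 0.12, limma adjusted p = 0.0496). Over alternatives Hist1h3d ranged from 0.51 to 0.70 and passed in 13 of 21, and Hist1h4j ranged from 0.45 to 0.63 and passed in 4 of 21. With single libraries left out the adjusted p of Hist1h3d lay between 0.0242 and 0.0806 and that of Hist1h4j between 0.0614 and 0.154, so Hist1h4j did not pass in any of these 12 fits.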

How the results depend on the processing

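Counts below are of the 64 histone genes past the threshold. With unscaled TPM the counts were 33 for flow in the Dync2h1 line and 0 for its difference of responses. Quantile normalisation gave 34 for flow in the Ift140 line, 35 in the Dync2h1 line, 8 for the static Dync2h1 contrast and 19 for that contrast under flow. Scaling from protein-coding genes gave 5 for the static Dync2h1 contrast, 3 higher and 2 lower, where the majority changed direction. It gave 1 for the Dync2h1 difference of responses, as did a pseudocount of 0.1 and no filter. The static Dync2h1 count was 2 without a filter and 7 with at least 5 TPM. Fits of the compared groups alone gave 4 for flow in the Ift140 line, 13 for the static Dync2h1 contrast, 2 for the Ift140 contrast under flow and 5 for the Dync2h1 difference. The cause was not tested. The median of members in the Dync2h1 line moved from -0.17 for flow to -0.29 unscaled and -0.33 by quantiles, from 0.34 to 0.20 and 0.15 against the wild type under flow, and from 0.29 to 0.16 for the difference with unscaled TPM.

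Leaving out single libraries gave 39 to 44 for flow in the wild type, 9 to 31 in the Ift140 line and 9 to 18 in the Dync2h1 line. It gave 3 to 5 and 2 to 3 for the static Ift140 and Dync2h1 contrasts, 12 to 37 and 28 to 37 under flow, and 0 to 0 and 0 to 1 for the differences. With near-identical members summed, the share of rows that passed was 77.8% for wild-type flow, 7.41% and 3.7% for the static contrasts, and 0% for both differences.

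The labels do not say whether replicate numbers pair the samples. Deviations of same-numbered static and flow libraries correlated at -0.04 to 0.10, which cannot show that the samples were unpaired. With the replicate number as a block the counts were 44, 20 and 19 for flow in the 3 genotypes, 5 and 4 for the static contrasts, 28 and 39 under flow and 0 and 2 for the differences. TPM keeps no depth, so counting precision limits these values by an unknown amount, most for members near 1 TPM.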
